A study of Mus musculus with 12 samples.

Results

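The genes described here encode the proteins of the cytosolic ribosome. They were taken by name from a table of raw counts of 34245 genes: names starting with *Rpl*, *Rps* or *Rplp* and a digit, leaving out 11 pseudogene rows and 10 rows of the *Rps6k* kinases. This gave 85 genes with counts, and *Rps4l*, which has values only in a separate table of log2 values, was added to make 86. Of these, 76 encode standard proteins of the ribosome (43 of the large subunit, 30 of the small subunit and 3 of the stalk), and 8 are paralogs or retrocopies of such genes. *Rps19bp1*, which encodes a binding partner of Rps19, has a matching name but is no ribosomal protein. RNA was sequenced from stem cells of the mouse small intestine (ISC) and from its adult enterocytes (AE), in 4 groups of 3 libraries: young ISC, aged ISC, young AE and aged AE. Young mice were about 8 months old and aged mice about 27 months old, all male C57BL/6 mice with the Lgr5-EGFP-IRES-creERT2 knock-in. ISC were the live crypt cells brightest for GFP, which the *Lgr5* promoter drives, and AE were live villus cells high for Epcam and negative for CD31 and CD45. The AE gate keeps other epithelial cells of the villus besides enterocytes, and the ISC gate may keep early descendants of the stem cell that still hold GFP.

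A ribosome is built from ribosomal RNA and ribosomal proteins in fixed proportions, so cells make these proteins in matched amounts, and fast-growing cells make many ribosomes. The mRNAs of ribosomal proteins in vertebrates typically begin with a C followed by an unbroken run of pyrimidines, the TOP motif, through which their translation follows mTOR signalling. Crypt base stem cells divide daily, while enterocytes on the villus no longer divide.

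Promoter sequences are shown because these genes differed together between cell types, while a few paralogs differed less. RefSeq windows of GRCm38.p6, from 250 bases before to 50 after the annotated start site, were found for 65 of the 85 genes. From each window below, the 30 bases before and the first 20 bases after the start site are printed, 5′ to 3′ on the transcribed strand, and capitals mark the longest run of C and T letters that begins within 5 bases of the start site. *Rps6* lies at chr4:86857348-86857397 (minus strand), *Rpl28* at chr7:4792935-4792984 (plus), *Rpl12* at chr2:32961682-32961731 (plus) and the start site of *Rpl35a* with the longest run at chr16:33056452-33056501 (plus). These 4 standard genes were picked among those with runs of 7 or more letters and are not those with the longest runs, as *Rpl27a* had 20. *Rplp0* (chr5:115559437-115559486, plus) and *Rpl7a* (chr2:26910777-26910826, plus) are shown as standard genes with a short run or none under this definition.
*Rps6*: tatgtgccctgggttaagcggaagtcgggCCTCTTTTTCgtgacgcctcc
*Rpl28*: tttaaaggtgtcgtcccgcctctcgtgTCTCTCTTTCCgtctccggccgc
*Rpl12*: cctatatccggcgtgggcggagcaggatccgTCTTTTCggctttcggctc
*Rpl35a*: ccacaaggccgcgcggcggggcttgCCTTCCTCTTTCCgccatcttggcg
*Rplp0*: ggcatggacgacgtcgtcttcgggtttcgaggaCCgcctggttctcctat
*Rpl7a*: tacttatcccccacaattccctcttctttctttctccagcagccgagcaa
*Rps27* (chr3:90213629-90213678, minus) is shown with its retrocopy *Rps27rt* (chr9:114982720-114982769, minus) and its paralog *Rps27l* (chr9:66946056-66946105, plus), since *Rps27* and *Rps27rt* share most of their transcript and *Rps27l* had the smallest fold change between cell types.
*Rps27*: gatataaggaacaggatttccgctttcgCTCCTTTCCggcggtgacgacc
*Rps27rt*: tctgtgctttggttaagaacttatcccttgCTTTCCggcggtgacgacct
*Rps27l*: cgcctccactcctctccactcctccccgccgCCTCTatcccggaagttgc
The paralogs *Rpl22l1* (chr3:28805478-28805527, plus), *Rpl36al* (chr12:69184048-69184097, minus) and *Rpl7l1* (chr17:46782637-46782686, minus) follow, with *Rpl36a* (chrX:134585624-134585673, plus), the parent of *Rpl36al*.
*Rpl22l1*: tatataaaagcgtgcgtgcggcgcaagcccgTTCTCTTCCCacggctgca
*Rpl36al*: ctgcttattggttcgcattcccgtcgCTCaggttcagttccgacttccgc
*Rpl36a*: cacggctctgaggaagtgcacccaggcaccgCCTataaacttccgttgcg
*Rpl7l1*: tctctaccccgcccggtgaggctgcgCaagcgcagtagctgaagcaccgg

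The run of C and T letters was 10 letters long in *Rps6*, 11 in *Rpl28*, 7 in *Rpl12*, 13 in *Rpl35a*, 2 in *Rplp0* and 0 in *Rpl7a*. In *Rpl7a* an unbroken run spans the start site but begins more than 5 bases before it, so it was not counted. It was 9 letters long in *Rps27* and 5 in *Rps27l*, but 3 in both *Rpl36a* and *Rpl36al*. *Rpl22l1* had a run of 10 letters, against 1 and 4 at the start sites of its parent *Rpl22*, and *Rpl7l1* had a run of 1. Paralogs and standard genes overlapped in run length. Over the 56 standard genes with a window, 18 (32.1%) had a run of 7 or more letters in any of their windows, against 8.88% of all 27025 genes with a window and 0 of 50 genes of ribosome assembly. The letters CTTTCC on the transcribed strand within 20 bases of the start site were found for 10 of the 56 standard genes (17.9%) and 2.30% of all genes. CCGGAAG, which holds the core bound by ETS factors, was found on either strand of 23 standard genes (41.1%), 17 of 50 assembly genes (34.0%) and 9.93% of all genes. AAGATGG, on either strand, which resembles the site of YY1, was found for 9 standard genes (16.1%) and 7.28% of all genes. TATAAA from 40 to 15 bases before the start site was found for 0 of the 56 standard genes and 2.41% of all genes. When the start of *Rps27rt* was lined up with *Rps27*, 39 of 49 letters after the start site were the same, with 38 in 1 unbroken stretch, against 21 of 100 letters before it. These counts depend on the annotated start sites.

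Of all counts, ribosomal protein genes took a share that was several times higher in ISC than in AE. The share was 3.35%, 5.13% and 4.59% in the young ISC libraries (replicates 1 to 3) and 5.61%, 5.79% and 3.40% in the aged ISC libraries. In AE it was 0.578%, 0.849% and 0.356% in the young libraries and 0.507%, 0.367% and 0.327% in the aged ones. Every ISC library lay above every AE library, and at each cell type the young and aged libraries overlapped. The mean was 4.36% ± 0.916 (SD, n = 3) in young ISC and 0.594% ± 0.247 in young AE, a ratio of 7.33, and 4.93% ± 1.33 in aged ISC and 0.401% ± 0.0945 in aged AE, a ratio of 12.3. A share is relative to all other RNA in the library, so fewer ribosomal protein transcripts per cell and more transcripts of other genes cannot be told apart, nor can fewer cells of a type and less RNA per cell. The summed counts of large-subunit genes were 1.19 ± 0.0627 times those of small-subunit genes in ISC of young mice and 1.19 ± 0.0444 times in ISC of aged mice. In AE this ratio was 1.30 ± 0.0668 (young) and 1.29 ± 0.0569 (aged), with overlap between the cell types.

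**Figure D1:**
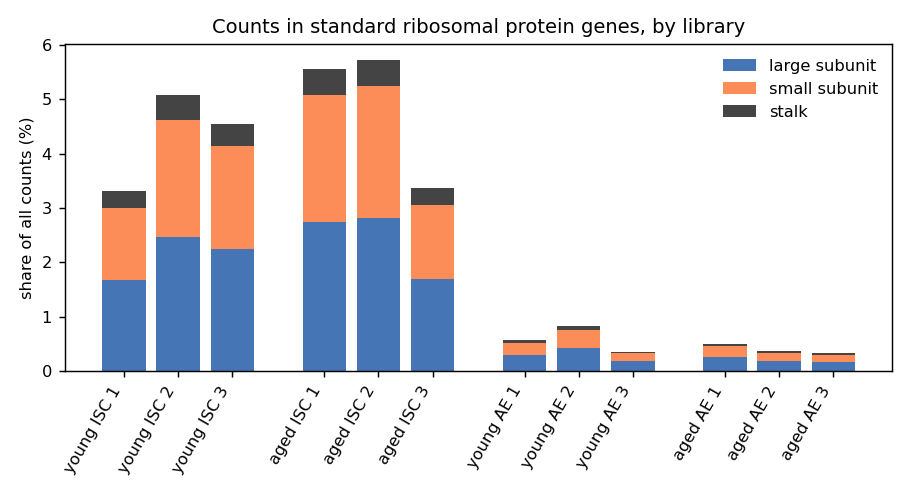
Share of all counts (%) in the 76 standard ribosomal protein genes, one bar per library, split into large subunit, small subunit and stalk. All 6 ISC bars stand above all 6 AE bars, and among ISC young replicate 1 and aged replicate 3 are the lowest.

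Within a cell type the genes moved together from library to library. Among the 6 ISC libraries, aged ISC replicate 3 was the lowest for 38 of the 76 standard genes and young ISC replicate 1 for 37. Aged ISC replicate 2 was the highest for 52 and aged ISC replicate 1 for 17. Among the AE libraries, young AE replicate 2 was the highest for 71 of the 76 genes, and aged AE replicate 3 (43 genes) or young AE replicate 3 (27 genes) was mostly the lowest. Mitochondrial genes took 3.48% and 2.25% of the counts in the ISC libraries with the lowest ribosomal protein shares, against 0.945% to 1.78% in the other 4. Young AE replicate 2 had 2.43% mitochondrial counts against 3.56% to 6.67% in the other 5 AE libraries, and it also stood apart in crypt markers (given with the effect of age). Libraries held between 11893817 and 110794420 counts, with young AE replicate 3 as the deepest.

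Levels per kilobase of merged exons, in CPM scaled by TMM factors, differed widely between standard genes. The mean over the 12 libraries was highest for *Rplp1*, an acidic stalk protein, at 1316 CPM per kilobase, followed by *Rpl4* at 763 and *Rpl8* at 694, both core proteins of the large subunit. It was lowest for *Rpl23a* at 1.07, a protein at the exit tunnel, then *Rpl17* at 2.43 and *Rpl21* at 2.52. The deposited counts came from uniquely mapped reads of 50 bases, and ribosomal protein genes have many retrocopies. Of the 50-base windows along the transcript of *Rpl23a*, 82.6% also occurred letter for letter in transcripts of 28 other genes. The share of such windows was 78.7% for *Rpl17*, 26.2% for *Rpl21*, 60% for *Rplp1*, 16.5% for *Rpl4* and 7.86% for *Rpl8*. Over the 85 genes the median was 49.1%, and 41 genes had more than 50% of their windows shared. Levels of genes with shared windows are therefore uncertain, while a comparison of the same gene between libraries was counted in the same way throughout. Levels per kilobase also depend on the annotated exons. The merged exons of *Rps15a* span 6270 bases, against 640 for its transcript used for the windows, while both are 499 for *Rplp1*.

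Between cell types, all 76 standard ribosomal protein genes had lower values in AE than in ISC at both ages. In young mice 75 of 76 passed the test, and the median log2 fold change over the 76 was -2.23 (4.71-fold lower). In aged mice 75 of 76 also passed, with a median of -2.95 (7.71-fold lower). Genes were called at an FDR of 0.05 by the quasi-likelihood test of edgeR, adjusted over all genes tested. Over all genes tested, 26.7% were called lower in AE in young and 34.2% in aged mice, and the median over all genes was 0.15 and -0.13. The values of the 3 AE and 3 ISC libraries did not overlap for any of the 76 genes at either age. Among all genes tested, the AE libraries all lay below the ISC libraries for 5112 of 16681 in young and 5785 of 15855 in aged mice. By subunit, the median in young mice was -2.13 for the large subunit, -2.35 for the small subunit and -2.38 for the stalk, and in aged mice -2.81, -3.06 and -3.09. The comparisons in young and aged mice have no library in common.

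**Figure D2:**
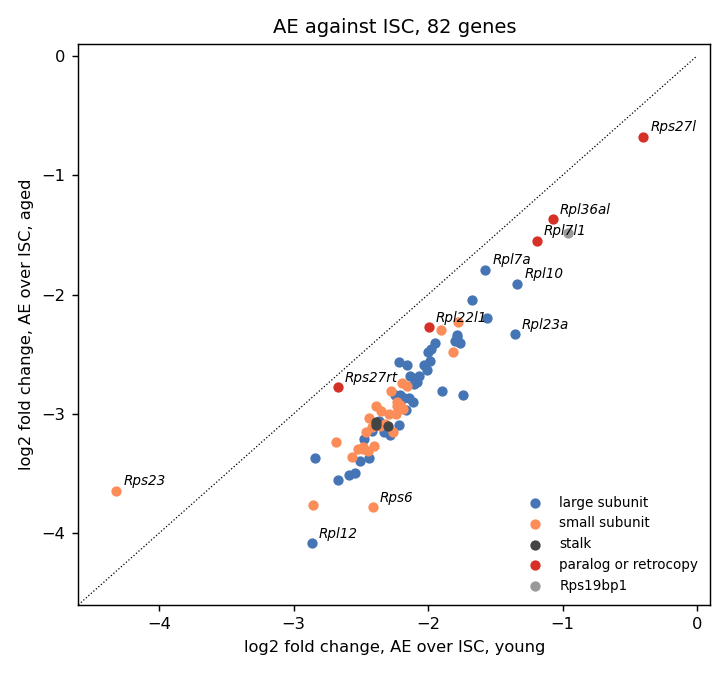
Log2 fold change of AE over ISC in young mice (horizontal) and aged mice (vertical), one point per gene, coloured by class, with a dotted line where both are equal. All 82 genes tested lie below 0 on both axes, and *Rps27l*, *Rpl36al*, *Rpl7l1* and *Rps19bp1* lie nearest to 0. *Rps27rt* rests on few counts.

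The stalk gene *Rplp0*, whose protein anchors the acidic stalk proteins, shows the usual pattern. It was at 1120, 1494 and 1432 CPM in young ISC and 248, 427 and 150 CPM in young AE. In aged mice it was at 1568, 1653 and 1118 CPM in ISC and 220, 181 and 132 CPM in AE. The groups did not overlap, and the log2 fold change was -2.30 (SE 0.38, FDR = 0.00125, edgeR) in young and -3.10 (SE 0.27, FDR = 4.25e-06, edgeR) in aged mice.

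The 3 standard genes that fell most in young mice were *Rps23* (-4.32, SE 0.88), *Rpl12* (-2.87, SE 0.46) and *Rps19* (-2.86, SE 0.42). In aged mice they were *Rpl12* (-4.08, SE 0.28), *Rps6* (-3.78, SE 0.23) and *Rps19* (-3.77, SE 0.33). *Rpl12*, at the base of the stalk, was at 361, 524 and 506 CPM in young ISC and 595, 603 and 393 CPM in aged ISC, against 53.9, 108 and 30.2 CPM in young AE and 42.9, 32.5 and 23.1 CPM in aged AE. *Rps6*, the substrate of S6 kinase, was at 89.6, 183 and 146 CPM in young ISC and 184, 190 and 122 CPM in aged ISC. In AE it was at 25.8, 37.4 and 16.2 CPM in young and 14.4, 13.2 and 10.2 CPM in aged libraries. *Rps23*, a protein of the decoding centre, had only 43, 340 and 71 counts in young ISC, so 1 library stood far above the others. Without that library, young ISC replicate 2, its log2 fold change was -2.95, and it was still called.

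The 3 standard genes that differed least in young mice were *Rpl10* (-1.34, SE 0.24), *Rpl23a* (-1.35, SE 0.65) and *Rpl15* (-1.56, SE 0.19). In aged mice they were *Rpl7a* (-1.79, SE 0.21), *Rpl10* (-1.91, SE 0.19) and *Rpl29* (-2.05, SE 0.27). *Rpl10*, among the last proteins to join the large subunit, was at 215, 272 and 281 CPM in young ISC and 109, 127 and 69.3 CPM in young AE, groups that did not overlap. *Rpl23a* was the standard gene not called in young mice (FDR = 0.106, edgeR), with 16, 25 and 11 counts in young ISC and 6, 0 and 41 counts in young AE, where the 41 counts come from the deepest library. *Rpl19* was the standard gene not called in aged mice, at -2.84 (SE 1.05, FDR = 0.0653, edgeR). Its counts were 277, 228 and 6 in aged AE and 4549, 2500 and 1430 in aged ISC, and without aged AE replicate 3 it was called at -2.28. It was also called with the library code as a replicate block, at -3.28, and with DESeq2.

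Several paralogs had smaller fold changes than the standard genes, the smallest being that of *Rps27l*. Rps27l resembles Rps27, a small-subunit protein with a zinc finger, and its gene is a target of p53. *Rps27l* was at 66.0, 110 and 113 CPM in young ISC against 73.3, 76.4 and 69.6 CPM in young AE, so the groups overlapped. In aged mice it was at 85.7, 111 and 71.0 CPM in ISC and 71.0, 58.1 and 46.9 CPM in AE. Its log2 fold change was -0.40 in young (SE 0.21, FDR = 0.141, edgeR) and -0.68 in aged mice (SE 0.21, FDR = 0.0161, edgeR), and leaving out aged ISC replicate 2 or aged AE replicate 3 gave -0.49 and -0.53 and ended the call. Its parent *Rps27* was at 203, 280 and 302 CPM in young ISC against 75.6, 97.3 and 57.0 CPM in young AE, and at 315, 379 and 164 CPM in aged ISC against 81.0, 57.2 and 53.8 CPM in aged AE. *Rps27* fell by 1.77 on the log2 scale in young mice and by 2.23 in aged mice. The share of 50-base windows found in other genes was 13.7% for *Rps27l* and 98.6% for *Rps27*, all of the latter also in *Rps27rt*.

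*Rpl36al*, an intronless paralog of *Rpl36a*, was at 28.6, 50.4 and 39.1 CPM in young ISC and 17.3, 23.7 and 15.3 CPM in young AE. Its log2 fold change was -1.07 in young (SE 0.26, FDR = 0.00766, edgeR) and -1.37 in aged mice (SE 0.27, FDR = 0.00126, edgeR), against -2.84 and -3.37 for *Rpl36a*. *Rpl7l1*, a relative of *Rpl7* with a role in the nucleolus, was at 102.5, 122 and 114 CPM in young ISC and 44.2, 60.6 and 43.7 CPM in young AE. It fell by 1.19 in young and by 1.55 in aged mice on the log2 scale, where *Rpl7* fell by 1.98 and by 2.46. *Rpl22l1*, the paralog of the RNA-binding protein gene *Rpl22*, stayed close to the standard genes, at -1.995 (SE 0.28) and -2.27 (SE 0.21), against -2.32 and -3.10 for *Rpl22*. *Rps19bp1* was at -0.96 (SE 0.19) and -1.48 (SE 0.23), both called.

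The ratio of *Rps27l* to *Rps27* counts was 0.325, 0.393 and 0.374 in ISC of young mice and 0.272, 0.293 and 0.434 in ISC of aged mice. It was 0.969, 0.785 and 1.22 in young AE and 0.876, 1.02 and 0.870 in aged AE, so all 6 AE libraries lay above all 6 ISC libraries. The means differed 2.72-fold in young and 2.77-fold in aged mice. The ratio of *Rpl36al* to *Rpl36a* was 3.6-fold higher in AE than in ISC in young and 4.02-fold in aged mice, and that of *Rpl7l1* to *Rpl7* 1.76-fold and 1.84-fold. For *Rpl22l1* to *Rpl22* the ratio was 0.236 ± 0.0125 (SD, n = 3) in young ISC and 0.299 ± 0.0128 in young AE, and 0.237 ± 0.0299 in aged ISC and 0.416 ± 0.0599 in aged AE. The 3 aged AE values of this ratio lay above the 3 young ones, a difference that was not tested. In ISC, and for the other ratios in both cell types, young and aged values overlapped. Neither *Rpl22l1* (FDR = 0.985, edgeR) nor *Rpl22* (FDR = 0.844, edgeR) was called with age in AE. A ratio within a library shows unequal change and does not depend on the scaling of libraries.

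**Figure D3:**
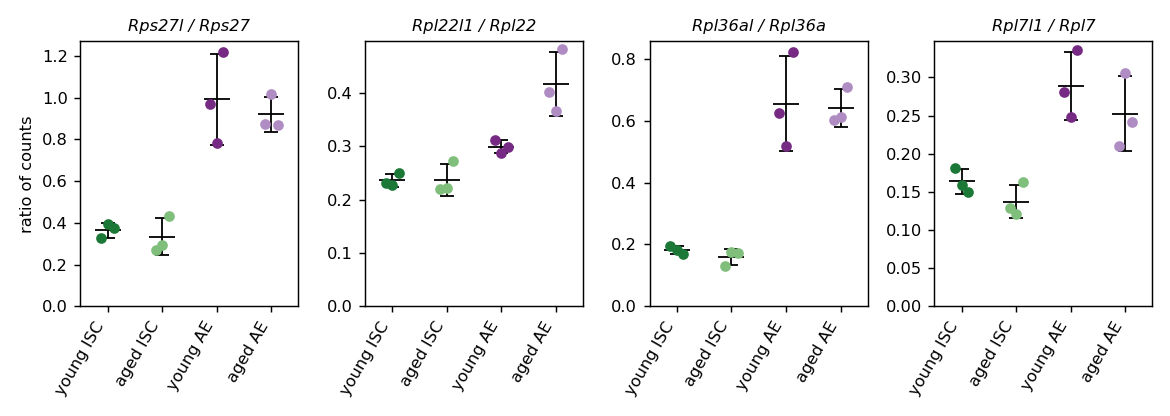
Ratio of counts of a paralog to its parent gene in each library (points), with the mean and SD of each group of 3 libraries (lines). The vertical axes start at 0 and differ between panels, and in each panel all 6 AE points lie above all 6 ISC points.

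Genes that departed from the common fall were sought by scaling each library to its summed counts of standard ribosomal protein genes, so that a fold change is relative to that sum. This alternative was added after the data were examined. Of 82 genes tested, 4 were called above and 1 below the sum in young AE, and 7 above and 3 below it in aged AE. The SE on this scale was often larger than on the TMM scale. In young mice it was 0.476 against 0.194 for *Rpl29* and 0.476 against 0.190 for *Rpl15*. For *Rps29* it was smaller, 0.472 against 0.576. The low number of calls therefore does not show that the other genes kept to the sum. On this scale 80.0% of all genes tested were called in either direction in young and 79.3% in aged mice, as most genes did not share the fall. *Rps27l* was higher relative to the sum by 1.96 (SE 0.49, FDR = 1.21e-04, edgeR) in young and by 2.17 (SE 0.34, FDR = 2.01e-05, edgeR) in aged mice, and *Rpl36al*, *Rpl7l1* and *Rps19bp1* also passed at both ages. Among standard genes, *Rps23* was lower in young mice (-1.72, FDR = 0.0130, edgeR), but not without young ISC replicate 2 (-0.58). In aged mice *Rpl12* (-1.25), *Rps6* (-0.92) and *Rps19* (-0.90) were lower and *Rpl7a* (1.09), *Rpl10* (0.93) and *Rpl29* (0.83) higher. With the library code as a replicate block, 5 genes passed in young and 18 in aged mice.

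Expression of 3 paralogs was not detected or close to the limit. *Rpl10l* and *Rpl39l*, known from the testis, had 0 counts in all 12 libraries, which allows between 0.0360 and 0.327 CPM depending on the library (3 counts, counting error only). *Rpl3l*, known from muscle, had 2 counts in aged ISC replicate 1, 3 in young AE replicate 3 and 0 elsewhere. The retrocopy *Rps27rt*, which shares 91.1% of its windows with other genes, was counted 6, 8 and 8 times in the ISC libraries of young mice and 16, 17 and 2 times in those of aged mice. Its AE libraries held 0, 1 and 6 (young) and 2, 0 and 0 (aged) counts. The pseudogene rows that the rule leaves out held between 108 and 3184 counts per library in all.

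Other genes of protein synthesis were taken from lists, not by how they moved. Of 4 genes that belong to the small or large subunit under other names, 3 were called lower in AE in young and 4 in aged mice. Over all genes tested, these shares were 26.7% and 34.2%. *Rpsa*, a small-subunit protein, was at -2.56 (SE 0.41) and -3.37 (SE 0.27), and *Rack1*, a signalling scaffold on the small subunit, at -2.32 (SE 0.37) and -3.06 (SE 0.29). *Fau*, which encodes a small-subunit protein fused to a ubiquitin-like protein, was at 152, 308 and 273 CPM in young ISC against 165, 178 and 171 CPM in young AE, groups that overlapped. Its log2 fold change was -0.51 (SE 0.25, FDR = 0.114, edgeR) in young and -0.64 (SE 0.21, FDR = 0.0229, edgeR) in aged mice, while *Rps27a*, which encodes a small-subunit protein fused to ubiquitin, fell by 2.42 and by 3.11. Of the windows of the *Fau* transcript, 76.9% occurred in 1 other gene.

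Of 56 genes of ribosome assembly, 55 were called lower in AE in young and 56 in aged mice, with medians of -2.34 and -3.03. For this and the next lists, the share called lower over all genes tested was 26.7% in young and 34.2% in aged mice. *Gar1* and *Fbl*, whose proteins belong to particles that modify ribosomal RNA, fell most, with log2 fold changes of -3.64 and -3.56 in young and -4.90 and -4.72 in aged mice. The smallest difference in young mice was that of *Nmd3*, an export adaptor of the large subunit, at -0.43 (SE 0.22, FDR = 0.124, edgeR), and in aged mice that of *Sdad1* at -0.66 (SE 0.16, FDR = 0.00420, edgeR), where *Nmd3* was at -0.77. Of 35 translation factors, 27 were called lower and 1 higher in young and 28 lower and 1 higher in aged mice, with medians of -1.22 and -1.46. *Eef1b2* and *Eef1g*, subunits of the elongation factor complex, were at -2.41 and -2.12 in young and at -3.15 and -2.93 in aged mice. The factor called higher was *Eif6*, which keeps free large subunits from joining small ones, at 0.73 (SE 0.21, FDR = 0.0154, edgeR) in young and 0.91 (FDR = 0.00139, edgeR) in aged mice. Of 11 pseudogene rows, 4 were tested in young and 5 in aged mice, and 2 were called lower at each age. These are too few rows to set against the share over all genes.

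With age, no ribosomal protein gene was called in ISC. Of 82 genes tested, 0 passed the FDR of 0.05 with edgeR or with DESeq2, and over all genes tested edgeR called 0%. Before adjustment, P was under 0.05 for 1 of the 82 genes with edgeR and 0 with DESeq2, where edgeR gave 5.04% over all genes. The log2 fold change of aged over young ISC was positive for 73 of 76 standard genes, with a median of 0.16 against 0.01 over all genes. This direction rested on single libraries: without young ISC replicate 1, 30 of 76 were positive, and without aged ISC replicate 2, 29 were, each with a median of -0.02. The highest values were 0.90 for *Rpl23a* (SE 0.38, FDR = 0.983, edgeR), 0.43 for *Rpl17* (SE 0.25) and 0.32 for *Rpl41* (SE 0.44). Among the lowest were -1.14 for *Rps23* (SE 0.69; 0.23 without young ISC replicate 2) and -0.20 for *Rps2* (SE 0.26). *Rpl23a* and *Rpl17* were the 2 standard genes whose aged libraries all lay above the young ones, against 4.43% of all genes tested, and *Rpl23a* had 11 to 78 counts per ISC library. The 6 ISC and crypt base markers summed to 6199, 5393 and 4544 CPM in young ISC and 4393, 5045 and 6429 CPM in aged ISC. The 5 Paneth cell markers with counts summed to 1373, 846 and 459 CPM in young ISC and 627, 493 and 929 CPM in aged ISC. Both sums were highest in young ISC replicate 1 and aged ISC replicate 3, which had the lowest ribosomal protein shares. The 10 enterocyte markers summed to 2611, 2537 and 7445 CPM in young ISC and 1096, 3728 and 1656 CPM in aged ISC. The 7 T cell markers summed to 20.03, 7.32 and 9.60 CPM in young ISC and 2.33, 2.70 and 0.801 CPM in aged ISC, where 2 of them were at or under 3 counts. The part of all these cells in the values of ribosomal protein genes was not tested.

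In AE, 0 of 81 genes tested passed the FDR of 0.05 with age, with edgeR or with DESeq2, and edgeR called 0% of all genes. The log2 fold change was negative for 76 of 76 standard genes, and for 75 with DESeq2, where *Rpl23a* was at 0.23. The median was -0.46 against -0.04 over all genes. Before adjustment, P was under 0.05 for *Rps6*, *Rpl27a* and *Rpl7l1* (3 genes) with edgeR and for 5 genes with DESeq2, against 4.76% of all genes with edgeR. The lowest values were -1.04 for *Rps6* (SE 0.31, FDR = 0.844, edgeR), -0.94 for *Rpl12* (SE 0.47) and -0.91 for *Rps2* (SE 0.46). The highest were -0.03 for *Rpl37a* (SE 0.28), -0.04 for *Rpl23a* (SE 0.74) and -0.09 for *Rpl7a* (SE 0.21). All 3 aged libraries lay below the young ones for 4 of the 81 genes, among them *Rps6*, *Rpl7l1* and *Rps19bp1*, where 6.98% of all genes tested did so.

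The size of the shift in AE depended on young AE replicate 2 and young AE replicate 3. Without replicate 2, which was the highest library for most genes, the median was -0.13 and 65 of 76 values were negative. Without replicate 3, the deepest, the median was -0.68. Before adjustment, P was then under 0.05 for 53 of the 81 genes with edgeR, against 3 with all libraries and 1 without replicate 2. The lowest FDR without replicate 3 was 0.15 (edgeR), so 0 genes passed the FDR of 0.05. The genes moved together between libraries, so they do not count as separate evidence. The 6 ISC and crypt base markers summed to 464 CPM in young AE replicate 2, against 163 and 53.2 CPM in the other young libraries and 67.8 to 122 CPM in the aged ones. The 10 proliferation markers summed to 438 CPM there, against 151 and 94.2 CPM in the other young and 109 to 113 CPM in the aged AE libraries. In ISC these sums were between 4393 and 6429 CPM and between 1436 and 1944 CPM. The 10 enterocyte markers summed to between 51658 and 86193 CPM in AE and between 1096 and 7445 CPM in ISC. The 6 goblet cell markers summed to between 23847 and 45987 CPM in AE and between 1455 and 2235 CPM in ISC. These sums cover 10 count rows, as some of the markers have more than 1 row. The count of markers at or under 3 counts throughout a group was 0 in all of these lists. The part of these cells in the differences of ribosomal protein genes was not tested.

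**Figure D4:**
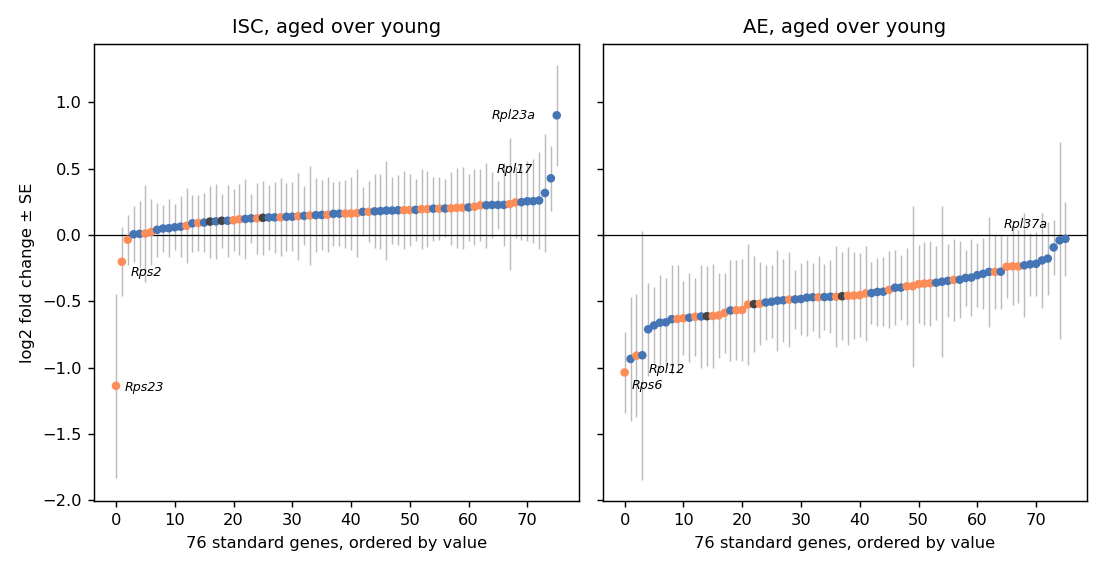
Log2 fold change of aged over young libraries, with SE, for the 76 standard genes in ISC (left) and AE (right), ordered by value within each panel, with blue for the large subunit, orange for the small subunit and black for the stalk. In ISC 73 values lie above 0, and in AE all 76 lie below 0, with 0 genes past an FDR of 0.05 in either.

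The difference of the age effect between AE and ISC was tested as an interaction over all 12 libraries. Of 82 genes, 0 passed with edgeR or with DESeq2, where edgeR called 0.00575% of all genes tested. Before adjustment, P was under 0.05 for 1 gene with edgeR, *Rps6* (-1.29, SE 0.45), against 3.88% of all genes, and for 2 genes with DESeq2. The value was negative for 75 of 76 standard genes, with a median of -0.62 against -0.09 over all genes. Its size depended on single libraries: the median was -0.31 without young AE replicate 2 and -0.89 without young AE replicate 3. Before adjustment, P was under 0.05 for 1 and 33 of the 82 genes in these 2 fits with edgeR, and 0 passed the FDR of 0.05. With the library code as a replicate block the median was -0.56 and 0 genes passed the FDR of 0.05. The lists of ribosome assembly and translation factors had medians of -0.57 and -0.22 in this test, with 0 called in either.

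*Rps4l* is annotated in GENCODE M21 as a transcribed processed pseudogene on chromosome 6 of GRCm38 (148354656 to 148355598, plus strand), a retrocopy of the X-linked *Rps4x*. Its values are the authors' log2 values, scaled by the 75th percentile of each library, and the study placed it in that table because of its difference with age, so they are given as a description. In ISC they were 11.44, 11.78 and 11.72 in young and 8.62, 7.19 and 6.86 in aged libraries. In AE they were 10.94, 10.88 and 11.21 in young and 6.82, 5.86 and 6.26 in aged libraries. The aged libraries all lay below the young ones, with a difference of means of -4.09 in ISC and -4.69 in AE, and ISC means lay above AE means at each age. The parent *Rps4x*, one of the standard genes, had a log2 fold change of 0.17 (SE 0.23) in ISC and -0.49 (SE 0.36) in AE with age on the TMM scale, with overlapping groups in both. Of the 50-base windows of *Rps4l*, 14.9% occurred in 1 other gene, a pseudogene, and of those of *Rps4x* 72.2% occurred in other genes.

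**Figure D5:**
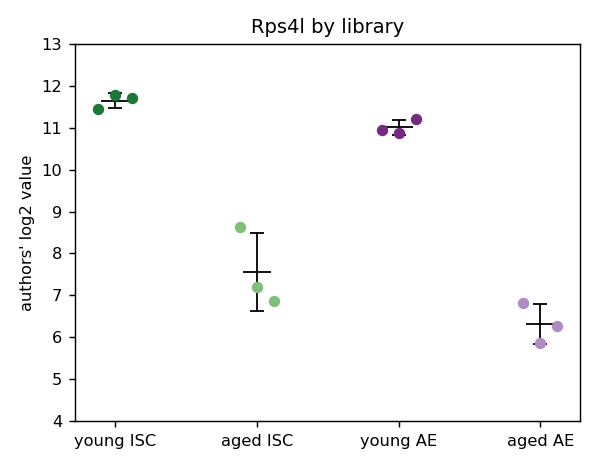
Log2 values of *Rps4l* as the authors scaled them, one point per library, with the mean and SD of each group of 3. The young points lie between 10.88 and 11.78 and the aged points between 5.86 and 8.62, on an axis that does not start at 0.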

How the data were processed

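Poly(A) RNA of sorted cells was sequenced as single-end reads of 50 bases after PCR with a directional kit, without molecular identifiers, so limits from counts cover counting error only. Per the submitters' notes and methods, the authors trimmed reads with Trim Galore 0.4.4, mapped them to GRCm38 with HISAT2 2.1.0 and counted uniquely mapped reads over merged exons in SeqMonk; the annotation release is not given in the sources used here. The deposited raw counts were used for 85 genes, and the authors' deposited log2 values, scaled to the 75th percentile, for *Rps4l*. The deposited −log10 FDR columns of the authors' own test were not used.

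For 8 of 12 samples, the title joins the code of one group to the name of another. Count columns were therefore assigned by their own names, with replicates numbered in column order. Codes are shared between ISC and AE. Libraries of the same code deviated together, with correlations of 0.190 to 0.392 in 6 of 6 pairs, so a fit with the code as replicate block was an alternative. The study's methods give the ages of 3 mice per age group for RNA-seq, and the labels do not tie libraries to mice. Replicate libraries differed by more than sampling noise (chi-square per degree of freedom 29.0 to 240).

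The analysis used edgeR 4.0.16 under R 4.3.3 (TMM, robust quasi-likelihood test) for genes whose counts summed to at least 10 in the libraries fitted, with Benjamini-Hochberg adjustment over all of them and a threshold of 0.05. The test was run on simulated counts for AE against ISC in young mice and for aged against young AE. These counts had the same dispersion for all genes and no shifts shared by the genes of a library. They therefore do not cover the joint movement of ribosomal protein genes seen here. CPM use TMM factors over the 12 libraries. Windows of 50 bases were compared on either strand with GENCODE M21 transcripts of genes elsewhere in the genome. Alternatives were DESeq2 1.42.0, RLE and upper-quartile scaling, TMM without ribosomal protein genes, other filters, 1 fit on the 4 groups, the block and leaving out each library; older edgeR dispersion steps and scaling to summed ribosomal protein counts were added after the data were examined. Genes, lists and tests were chosen with earlier results of these data known. Per comparison, the 3 highest and 3 lowest standard genes were named, with every paralog beside its parent, and the extremes of each further list; a few genes that this rule names are not reported here.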

Additional observations from a re-analysis of the deposited data

How the results depend on the processing

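The fall of ribosomal protein genes in AE was kept under every alternative that scales libraries over all genes: between 79 and 81 genes were called lower in young and between 79 and 81 in aged mice, with medians of the standard genes from -2.66 to -2.07 and from -3.17 to -2.81. With the pairing by library code as a replicate block, 80 genes were called in young (median -2.29) and 81 in aged mice (-2.94). Among the genes named, the block changed the call of *Rpl19* in aged mice and no other on the TMM scale. With age, 0 genes passed an FDR of 0.05 in ISC, in AE or for their difference under any alternative, the block included (median of the difference -0.56). The count of standard genes with a positive value in aged ISC was 73 and ran from 29 (without aged ISC replicate 2; 30 without young ISC replicate 1) to 75 with single libraries left out, while the median ran from -0.02 to 0.39. In AE the median ran from -0.68 to -0.13 with single libraries left out. Relative to the summed ribosomal protein counts, 5 genes passed in young mice (2 to 7 with single libraries left out) and 10 in aged mice (6 to 15), and the replicate block gave 18 in aged mice; the cause was not tested. Values near 0 that no test called changed sign. With single libraries left out, the age effect in ISC ran from -1.56 to 0.23 for *Rps23* and -0.47 to 0.04 for *Rps2*. In AE it ran from -0.31 to 0.16 for *Rpl37a*, -0.31 to 0.66 for *Rpl23a* and -0.26 to 0.11 for *Rpl7a*, and the difference between cell types from -0.62 to 1.16 for *Rps23*. *Rpl23a* in AE was at 0.23 with DESeq2 and 0.18 with the older dispersion steps of edgeR. *Rps27l* passed relative to the sum with every single library left out. Leaving mitochondrial genes out of the denominator moved no group's mean share by more than its SD. Depth limits *Rpl23a*, *Rps23*, *Rps27rt* and *Rpl3l*, which have few counts. With upper-quartile scaling the median over all genes for AE against ISC in young mice was 0.03 in place of 0.15, and the median of the standard genes -2.35. Over all genes with age, edgeR called 0 in ISC, 0 in AE and 1 for the difference, DESeq2 58, 18 and 43, and the replicate block 19 for the difference.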
